A study of Mus musculus with 9 samples.

Results

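Spinal motoneurons fall into subtypes that drive different muscle fibres, and 10 genes that mark those subtypes are described here in motoneuron libraries of injured, stimulated and sham mice. The rows of the deposited gene table whose symbol is 1 of these 10 were taken, 10 of 55401 rows in all. They are Chodl and Mmp9 for fast motoneurons, Sv2a and Esrrb for slow ones, Esrrg, Gfra1 and Wnt7a for gamma motoneurons, Spp1 and Rbfox3 for alpha motoneurons, and Uts2b. Each symbol matched 1 row, and all 10 passed the filter on low counts.

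Alpha motoneurons contract skeletal muscle, and those that drive fast-fatigable fibres differ in size, firing and gene expression from those that drive slow fibres. Gamma motoneurons are smaller cells that set the sensitivity of muscle spindles. In mice, fast motoneurons are known for Chodl, Mmp9 and a strong signal of CGRP, slow ones for Sv2a and Esrrb, and gamma motoneurons for Esrrg and Gfra1 with little of the neuronal protein NeuN that Rbfox3 encodes. Esrrb has also been described in gamma motoneurons, and several of these genes are also made by other cells of the spinal cord.

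The libraries were made with the Smart-seq2 protocol, which amplifies whole transcripts from very little RNA, from motoneurons that carried a fluorescent label named TRDA and were aspirated from spinal cord slices. All mice were wild type, and tissue was taken 4 weeks after injury. The SBES group had a spinal cord injury and synergistic bidirectional electrical stimulation, with libraries 1, 2 and 3 stimulated at 10, 15 and 20 Hz. The untrained group had the injury without stimulation, and the sham group had no treatment named. Each group has 3 libraries, and the sources used here give no strain, no age and no number of neurons per library. A difference between single SBES libraries cannot be told apart from a difference of frequency. Which mouse a library came from is not labelled, so each p-value reflects library-to-library spread that may be partly technical. The table's columns for the 3 untrained libraries and for SBES library 1 were matched to their samples by elimination, a step on which all values of those 4 libraries depend.

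Total counts ran from 11821145 to 17675948 per library. SBES library 1 (-48.4) and sham library 1 (-49.1) stood apart on the first principal component, which held 42.3% of the variance. Untrained library 1 (-11.4) lay between them and the libraries of replicates 2 and 3 (13.0 to 28.0). The replicate 1 libraries of the 3 groups had 4774 to 16069 CPM of the nuclear RNA Malat1, against 514 to 1617 CPM in the others (CPM of the unadjusted library total). Mitochondrial genes held 18.6% of the counts of SBES library 1, and 2.47% to 7.36% in the other 8 libraries. Motoneuron genes were present in every library, with none of 7 markers at 0. Chat, the enzyme that makes acetylcholine, averaged 25.9 ± 6.82 CPM in SBES, 27.8 ± 6.67 CPM in untrained and 29.6 ± 8.61 CPM in sham libraries (SD, n = 3 each). The summed level of the 7 motoneuron markers was lowest in untrained library 1 (133 CPM) and sham library 1 (169 CPM) and between 240 and 430 CPM in the other 7. Summed over 8 oligodendrocyte genes the level was 38360 to 109021 CPM, and over 7 astrocyte genes 9568 to 14221 CPM, so RNA of glial cells was plentiful in every library. With RNA from such mixtures, fewer motoneurons of a subtype and less RNA per motoneuron cannot be told apart.

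The level of the 10 genes is compared between genes in FPKM, which divides by exonic length. In sham libraries Spp1, which encodes the secreted protein osteopontin, came first at 376 ± 15.5 FPKM. Uts2b followed at 30.6 ± 19.9 FPKM, then Rbfox3 at 14.8 ± 2.91, Sv2a at 14.2 ± 4.16 and Chodl at 6.84 ± 2.47 FPKM. Gfra1 at 3.00 ± 1.15, Wnt7a at 2.76 ± 0.951, Mmp9 at 2.36 ± 0.522 and Esrrg at 2.33 ± 1.12 FPKM overlapped each other from neighbour to neighbour, and Esrrb was last at 0.157 ± 0.0971 FPKM (SD, n = 3 for each). Uts2b, Rbfox3 and Sv2a also overlapped in that order, while Spp1, Chodl and Esrrb did not overlap their neighbours in sham libraries. In SBES libraries Uts2b stood at rank 7 with 1.89 ± 1.97 FPKM and in untrained libraries at rank 4 with 5.27 ± 4.61 FPKM, against rank 2 in sham. Esrrb had only 4 to 26 counts per library, and its values carry a wide counting error, from 1.09 to 10.2 for the 4 counts of sham library 1 (95% Poisson interval, counting error only).

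Per-library levels are given in CPM scaled by TMM, a method that adjusts library totals for composition, and fold changes come from edgeR's quasi-likelihood test over 15893 genes. No member passed an adjusted p of 0.05 in any of the 3 comparisons. Over all genes that test called 0 in SBES against untrained (0% of genes; 30 by DESeq2), 55 in SBES against sham (0.346%, with 0.271% higher and 0.0755% lower), and 0 in untrained against sham (0%; 18 by DESeq2). An unadjusted p under 0.05 was reached by 1 of 10 members in SBES against untrained (854 of all genes, 5.37%), 4 in SBES against sham (1480 genes, 9.31%) and 4 in untrained against sham (707 genes, 4.45%). The members are therefore given by their values, with the calls of other fits where there were any.

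**Figure D1:**
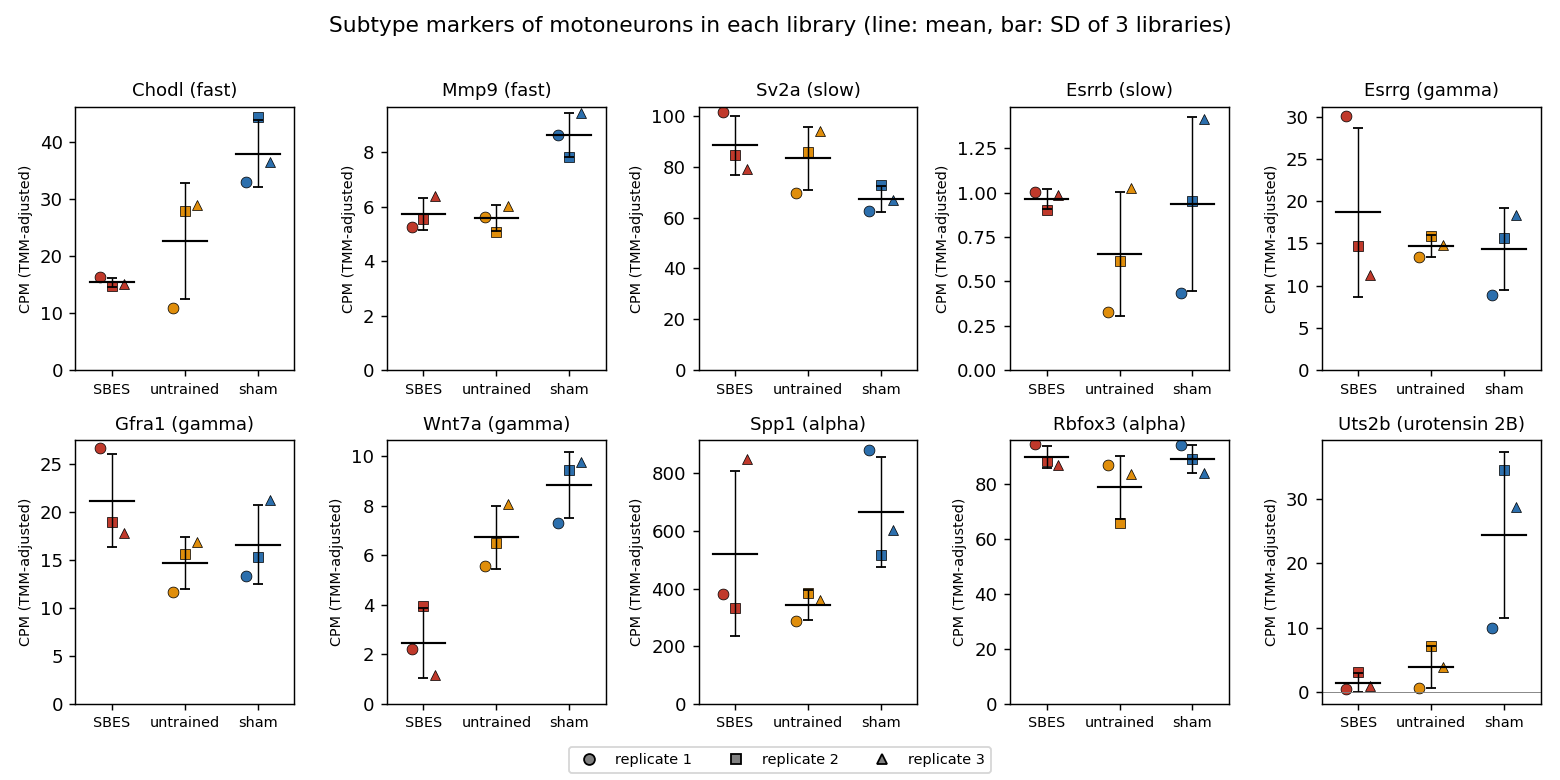
Levels of the 10 markers in CPM (TMM-adjusted) in each library, with SBES left, untrained in the middle and sham right; points are libraries, lines means and bars the SD of 3 libraries. Uts2b lies at 0.446 to 3.12 CPM in SBES, 0.595 to 7.18 in untrained and 9.91 to 34.5 in sham libraries, and Wnt7a at 1.17 to 3.95, 5.55 to 8.08 and 7.30 to 9.76 CPM in the same groups.

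Uts2b, Chodl and Wnt7a had the largest absolute log2 fold changes of the 10 genes in SBES against sham, and their promoters are printed for that reason. Each is the stretch from 250 bases before to 50 after the gene's start as RefSeq gives it on GRCm38.p6, 5′ to 3′ on the gene's strand, and 9 of the 10 members had at least 1 such entry, 14 in all. Capitals mark matches to any of 5 motifs searched on both strands, the half-site AAGGTCA of the receptors that Esrrb and Esrrg encode, the TATA box TATAAA, an E-box with the letters CAGCTG, a homeodomain core with the letters TAATTA and the CCAAT box.
Uts2b, chr16:27370190-27370489, minus strand: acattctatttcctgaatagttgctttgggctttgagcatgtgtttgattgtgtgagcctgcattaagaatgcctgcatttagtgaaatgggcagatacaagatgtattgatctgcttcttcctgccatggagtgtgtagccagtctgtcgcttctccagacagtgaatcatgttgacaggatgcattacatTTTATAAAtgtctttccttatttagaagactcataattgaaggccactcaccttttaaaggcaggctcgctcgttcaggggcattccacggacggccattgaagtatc
Chodl, chr16:78930698-78930997, plus strand: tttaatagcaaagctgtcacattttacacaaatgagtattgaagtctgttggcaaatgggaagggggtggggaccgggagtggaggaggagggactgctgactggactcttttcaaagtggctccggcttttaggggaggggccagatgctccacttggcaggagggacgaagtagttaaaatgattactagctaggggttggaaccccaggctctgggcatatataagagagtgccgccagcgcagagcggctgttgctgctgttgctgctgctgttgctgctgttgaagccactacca
Wnt7a, chr6:91411304-91411603, minus strand: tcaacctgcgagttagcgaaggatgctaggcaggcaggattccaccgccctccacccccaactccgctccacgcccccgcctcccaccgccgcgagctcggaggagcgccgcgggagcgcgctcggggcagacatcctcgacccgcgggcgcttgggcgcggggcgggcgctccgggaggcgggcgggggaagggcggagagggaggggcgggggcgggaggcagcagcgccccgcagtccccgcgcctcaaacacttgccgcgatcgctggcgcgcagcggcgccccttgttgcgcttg
Only Uts2b among these 3 held an exact match, TATAAA on each strand in an overlapping pair at -58 and -56 from the start. TATAAA was found in 13.6% of the 32851 promoters of the table. Variants of the motifs were not searched, and the Chodl stretch holds the letters tatataag. AAGGTCA was in 0 of the 14 member promoters and in 4.72% of all, CAGCTG in those of Esrrb, Gfra1 and Sv2a (16.3% of all), TAATTA in 1 of Spp1 (5.29%) and CCAAT in those of 5 members (37.4%). A match is a description of the letters and does not show binding.

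In the deposited table (mm10), Uts2b (ENSMUSG00000056423) spans chr16:27353322-27370239 on the minus strand and Chodl (ENSMUSG00000022860) chr16:78930948-78951733 on the plus strand. Wnt7a (ENSMUSG00000030093) spans chr6:91363981-91411363 on the minus strand, Gfra1 (ENSMUSG00000025089) chr19:58235604-58455909 on the minus strand and Rbfox3 (ENSMUSG00000025576) chr11:118489762-118911597 on the minus strand. On the plus strand lie Spp1 (ENSMUSG00000029304) at chr5:104435118-104441050, Mmp9 (ENSMUSG00000017737) at chr2:164940780-164955850 and Sv2a (ENSMUSG00000038486) at chr3:96181151-96195521. Esrrb (ENSMUSG00000021255) at chr12:86361117-86521628 and Esrrg (ENSMUSG00000026610) at chr1:187608791-188214885 are on the plus strand as well. The table gives 1 value per gene over its exonic length, so coding and untranslated parts are not separated. None of Uts2b, Chodl, Wnt7a, Mmp9, Sv2a and Esrrb overlapped another gene of the table. Genes overlapping Esrrg, Gfra1, Spp1 and Rbfox3 had few counts, the most being 143 for Gm36388 on the strand opposite Esrrg, 6.93% of Esrrg's own, and since the strand setting of the counting is not known such reads cannot be told apart.

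Uts2b, the precursor of a peptide related to urotensin 2 that is made in a subset of spinal motoneurons, showed the widest difference of the 10 genes. Its level was 0.446, 3.12 and 0.928 CPM in SBES libraries 1 to 3 (4, 45 and 15 counts), 0.595, 7.18 and 3.86 CPM in untrained libraries (9, 129 and 64 counts), and 9.91, 34.5 and 28.7 CPM in sham libraries (91, 544 and 527 counts). Every SBES and untrained library lay below every sham library on this scale, and the replicate 1 library was the lowest of each group. The log2 fold change was -3.97 in SBES against sham (SE 0.82, 95% interval -5.75 to -2.19, unadjusted p = 0.000379, adjusted p = 0.0677), about 15.7-fold lower. No label pairs the libraries of these 2 groups. With the replicate number as a block, an alternative fit, Uts2b fell in SBES against sham, at -4.27 (SE 0.40, edgeR adjusted p = 0.00143). That fit called 41 of all genes lower in this comparison (0.258%), and DESeq2, which called 79 lower (0.498%) and 221 higher (1.39%), gave Uts2b an adjusted p of 0.00789. In untrained against sham the log2 fold change was -2.65 (SE 0.75, interval -4.27 to -1.02, adjusted p = 0.943), and in SBES against untrained it was -1.33 (SE 0.79, interval -3.04 to 0.39, adjusted p = 0.988), with overlapping libraries. With a library left out it ran from -5.06 to -3.59 in SBES against sham and from -2.42 to -0.53 in SBES against untrained. In FPKM, which carries no TMM factor, untrained and sham libraries overlapped, since untrained library 2 at 9.96 FPKM exceeded sham library 1 at 8.62 FPKM; SBES and sham libraries did not.

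The urotensin family offers 2 further genes in the table. Uts2, the precursor of urotensin 2 itself, stood at 46.4, 16.7 and 26.1 CPM in SBES, 4.49, 28.0 and 13.0 CPM in untrained and 44.7, 85.7 and 160 CPM in sham libraries. In CPM all 3 untrained libraries lay below all 3 sham libraries, while SBES library 1 reached the level of sham library 1. In FPKM untrained and sham touched, with 60.29 FPKM in untrained library 2 and 60.28 FPKM in sham library 1. The log2 fold change was -2.67 in untrained against sham (SE 0.62, unadjusted p = 0.00103, adjusted p = 0.802) and -1.71 in SBES against sham (SE 0.60, adjusted p = 0.350). Uts2r, the receptor of both peptides, had 0 to 8 counts in a library and did not pass the filter.

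Chodl encodes chondrolectin, a lectin-like membrane protein and a marker of fast motoneurons. Its level was 16.3, 14.7 and 15.2 CPM in SBES, 11.0, 27.9 and 29.0 CPM in untrained, and 32.9, 44.4 and 36.5 CPM in sham libraries. The SBES libraries lay close together and below all sham libraries, in CPM and in FPKM, and the untrained libraries lay below sham in CPM only, with library 1 the lowest of all 9. The log2 fold change was -1.30 in SBES against sham (SE 0.32, interval -2.01 to -0.60, adjusted p = 0.139), -0.56 in SBES against untrained (SE 0.32, interval -1.26 to 0.14, adjusted p = 0.973) and -0.75 in untrained against sham (SE 0.32, interval -1.44 to -0.05, adjusted p = 1.00). DESeq2 gave an adjusted p of 0.0182 for SBES against sham, and edgeR on these 2 groups alone 0.0496 (a fit that called 0.0791% of genes lower and 0.27% higher). Without untrained library 1 the log2 fold change of untrained against sham was -0.38.

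The other fast marker, Mmp9, encodes a secreted protease that cleaves matrix proteins. It stood at 5.24, 5.55 and 6.37 CPM in SBES, 5.62, 5.07 and 6.03 CPM in untrained, and 8.61, 7.81 and 9.43 CPM in sham libraries. SBES and untrained libraries overlapped each other (log2 fold change 0.041, SE 0.25, interval -0.50 to 0.58), and neither overlapped sham in CPM. The log2 fold change was -0.59 in SBES against sham (SE 0.25, adjusted p = 0.493) and -0.63 in untrained against sham (SE 0.25, adjusted p = 1.00), and in FPKM both injured groups overlapped sham. Neutrophils also make Mmp9, and the summed level of 11 neutrophil genes was 125 to 167 CPM in SBES, 109 to 790 CPM in untrained and 9.81 to 1637 CPM in sham libraries, with 4 of the 11 at 0 in each of sham libraries 2 and 3. Sham library 1 had the highest of these sums and the second-highest Mmp9 (8.61 CPM), and sham library 3 had the lowest sum and the highest Mmp9 (9.43 CPM). The part of neutrophil RNA in the Mmp9 values was not tested.

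Slow markers gave no difference past the threshold. Sv2a, a synaptic vesicle protein of most neurons that is enriched in slow motoneurons, was at 102, 84.6 and 79.0 CPM in SBES, 69.8, 85.7 and 94.2 CPM in untrained and 62.4, 72.8 and 66.8 CPM in sham libraries. The SBES libraries all lay above sham in CPM (log2 fold change 0.39, SE 0.21, interval -0.06 to 0.84, adjusted p = 0.615) but overlapped it in FPKM. In SBES against untrained the log2 fold change was 0.086 (SE 0.21), and the log2 ratio of mean FPKM had the opposite sign at -0.14. Esrrb, an orphan nuclear receptor, stood at 1.00, 0.902 and 0.989 CPM in SBES, 0.331, 0.612 and 1.03 CPM in untrained and 0.436, 0.952 and 1.42 CPM in sham libraries. Its groups overlapped, and the intervals of its log2 fold changes ran from -0.66 to 1.74 in SBES against untrained, -1.14 to 1.12 in SBES against sham and -1.73 to 0.64 in untrained against sham.

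Among the gamma markers, Wnt7a gave the largest log2 fold changes in the comparisons of SBES with untrained and sham libraries. This secreted Wnt ligand was at 2.23, 3.95 and 1.17 CPM in SBES (20, 57 and 19 counts), 5.55, 6.51 and 8.08 CPM in untrained (84, 117 and 134 counts) and 7.30, 9.46 and 9.76 CPM in sham libraries (67, 149 and 179 counts). All SBES libraries lay below all untrained and all sham libraries, in CPM and in FPKM. In SBES against sham the log2 fold change was -1.85 (SE 0.40, interval -2.71 to -0.99, adjusted p = 0.0852). With the replicate block Wnt7a fell in SBES against sham (-1.90, SE 0.38, edgeR adjusted p = 0.0475), and DESeq2 gave an adjusted p of 0.00115. Without SBES library 2 the edgeR value was -2.42 (adjusted p = 0.0380, in a fit that called 0.0428% of genes lower). No other library left out gave a call, and over these fits the edgeR value ran from -2.42 to -1.50 (adjusted p 0.0380 to 0.337). In SBES against untrained it was -1.45 (SE 0.39, interval -2.31 to -0.59, unadjusted p = 0.00307, adjusted p = 0.749), and in untrained against sham -0.40 (SE 0.37, interval -1.21 to 0.41, adjusted p = 1.00), with overlapping libraries.

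Gfra1, the receptor subunit that binds the neurotrophic factor GDNF, stood at 26.7, 19.0 and 17.9 CPM in SBES, 11.7, 15.6 and 16.9 CPM in untrained and 13.3, 15.3 and 21.3 CPM in sham libraries. The SBES libraries lay above the untrained ones in CPM (log2 fold change 0.52, SE 0.27, interval -0.06 to 1.10, adjusted p = 0.954) but not in FPKM, and overlapped sham. That log2 fold change was 0.32 without SBES library 1, which had the highest Gfra1 level of all 9. Esrrg, the nuclear receptor related to Esrrb, was at 30.1, 14.7 and 11.3 CPM in SBES, 13.4, 15.9 and 14.8 CPM in untrained and 8.93, 15.6 and 18.4 CPM in sham libraries. SBES library 1 had the highest Esrrg level of all 9 and sham library 1 the lowest, and the groups overlapped. SBES library 1 is also the library with 18.6% mitochondrial counts, and the part of RNA quality in its Esrrg value was not tested. Without SBES library 1 the log2 fold change in SBES against sham was -0.13, against 0.37 (SE 0.36, interval -0.42 to 1.16) with all libraries.

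Neither alpha marker passed the threshold. Rbfox3, the splicing regulator known as NeuN, was at 94.4, 88.3 and 86.9 CPM in SBES, 87.0, 65.6 and 83.7 CPM in untrained and 94.2, 89.1 and 84.1 CPM in sham libraries. Its log2 fold change was 0.012 in SBES against sham (SE 0.20), and the interval of -0.41 to 0.44 was among the narrowest of the members. Spp1 stood at 382, 331 and 851 CPM in SBES, 286, 386 and 359 CPM in untrained and 882, 515 and 605 CPM in sham libraries. The untrained libraries lay below the sham libraries in CPM and in FPKM, at a log2 fold change of -0.96 (SE 0.35, interval -1.73 to -0.19, unadjusted p = 0.0189, adjusted p = 1.00). In CPM, SBES libraries 1 and 2 lay in the range of the untrained libraries, and library 3 at 20 Hz in that of sham. In FPKM, SBES library 3 (525 FPKM) lay above all sham libraries (359 to 389 FPKM) and SBES library 1 (176 FPKM) below all untrained libraries (182 to 271 FPKM). SBES against sham gave a log2 fold change of -0.36 (SE 0.35, adjusted p = 0.836), or -0.90 without SBES library 3.

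Activated microglia and macrophages make Spp1 too. The summed level of 9 genes of activated phagocytes was 135, 594 and 769 CPM in SBES, 318, 363 and 408 CPM in untrained and 1421, 104 and 42.6 CPM in sham libraries, and among them Gpnmb stood at 4.01, 98.7 and 60.7 CPM, 6.74, 9.91 and 19.8 CPM, and 75.4, 1.97 and 2.13 CPM in SBES, untrained and sham libraries. The 2 libraries with the highest Spp1, sham library 1 and SBES library 3, had the highest sums of these genes. Lyz2 weighed heavily in the sums, averaging 387 ± 595 CPM in sham and 255 ± 178 CPM in SBES libraries (SD, n = 3 each). By geometric mean FPKM these 2 libraries were again highest (3.33 and 3.30). By median, SBES library 3 (7.85 CPM) lay below SBES library 2 (9.85 CPM) and untrained library 3 (8.81 CPM). Gpnmb was highest in SBES library 2, which had the lowest Spp1 of the SBES libraries in CPM. Sham libraries 2 and 3 combined 515 and 605 CPM of Spp1 with the lowest sums, and with 2 and 1 of the 9 genes at 0. The 9 general microglia genes summed to 513, 948 and 1394 CPM in SBES, 700, 804 and 847 CPM in untrained and 936, 447 and 429 CPM in sham libraries. The part of phagocyte RNA in the Spp1 values was not tested.

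**Figure D2:**
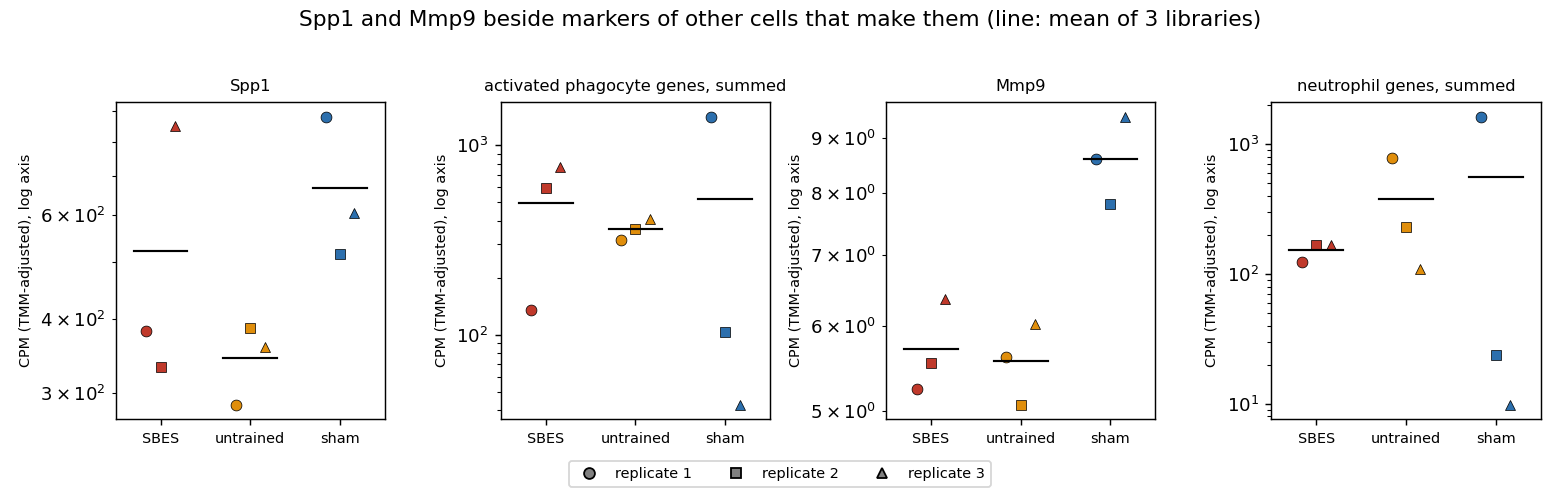
Spp1, the sum of 9 activated phagocyte genes, Mmp9 and the sum of 11 neutrophil genes in each library, in CPM (TMM-adjusted) on log axes, with SBES left, untrained in the middle and sham right; points are libraries and lines means. Sham library 1 is highest for Spp1 (882 CPM) and for both sums (1421 and 1637 CPM), and Mmp9 has its highest value in sham library 3 (9.43 CPM).

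Across the 10 genes, the median log2 fold change was 0.14 in SBES against untrained (3 of 10 below 0; all genes 0.015, with 48.3% below 0), -0.18 in SBES against sham (6 of 10; all genes -0.0018, 50.2%) and -0.47 in untrained against sham (8 of 10; all genes -0.0068, 50.9%). The members whose libraries all lay below the other group's in CPM were 1 in SBES against untrained (Wnt7a, where 4.77% of all genes did so), 4 in SBES against sham (Chodl, Mmp9, Wnt7a and Uts2b; 6.73%) and 4 in untrained against sham (Chodl, Mmp9, Spp1 and Uts2b; 5.13%). Those wholly above were Gfra1 in SBES against untrained (5.66% of all genes) and Sv2a in SBES against sham (7.1%). In FPKM these counts were 1 below in SBES against untrained (9.31% of all genes), 3 below in SBES against sham (3.79%) and 1 below in untrained against sham (1.37%). In FPKM 0 members lay wholly above the other group in SBES against untrained (1.78% of all genes), SBES against sham (5.83%) or untrained against sham (7.76%), and in CPM 0 did so in untrained against sham (4.63%). Other lists also had medians below 0 in untrained against sham, -0.52 for 8 pan-neuronal genes (6 of 8 below 0, with 4 wholly below sham in CPM), -0.55 for 8 oligodendrocyte genes (8 of 8) and -0.38 for the 7 motoneuron markers (6 of 7). Any 2 of the 3 comparisons share a group of libraries and are not independent.

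Calls by other fits were all lower, and all concerned Uts2b, Chodl and Wnt7a. With no filter on low counts, edgeR called Wnt7a (adjusted p = 0.0198) and Uts2b (0.0417) in SBES against untrained, where that fit called 0.148% of all genes lower. It called Uts2b (2.14e-21), Wnt7a (0.000287) and Chodl (0.00281) in SBES against sham (0.381% of genes lower) and Uts2b (3.56e-10) in untrained against sham (0.167%). That fit took in 31752 genes in place of 15893 and called 121 lower in SBES against sham, where the main fit called 12 and no member. These adjusted p-values thus moved with the filter and were not taken as stronger evidence. The cause of the shift was not tested. On the SBES and sham libraries alone Uts2b was called beside Chodl (edgeR adjusted p = 0.0378), while Wnt7a was not (0.133). Without the replicate 1 libraries, an alternative chosen after seeing the data, edgeR called Uts2b (0.000955), Chodl (0.00326) and Wnt7a (0.0296) in SBES against sham (0.716% of genes lower) and Uts2b (0.0290) in untrained against sham (0.0555%). With the replicate block, a pairing that no label gives, Uts2b was also called in untrained against sham (0.0409, with 0.0189% of genes lower).

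**Figure D3:**
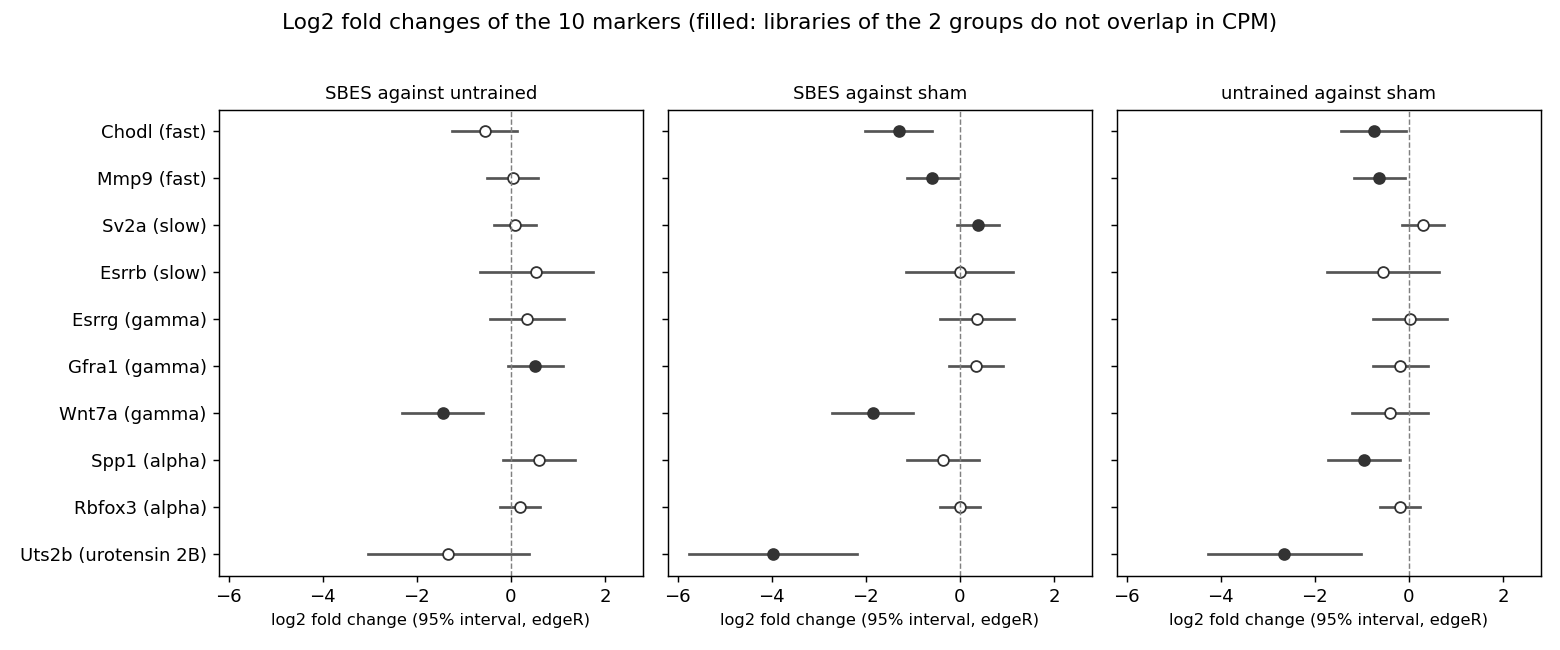
Log2 fold changes of the 10 markers with 95% intervals from edgeR for SBES against untrained, SBES against sham and untrained against sham; filled points mark genes whose libraries do not overlap between the 2 groups in CPM. Uts2b lies farthest left at -3.97 in SBES against sham and -2.65 in untrained against sham, and Rbfox3 lies at 0.19, 0.012 and -0.18 in these comparisons.

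Because motoneuron content varied between libraries, each member was also set against the geometric mean FPKM of the 7 motoneuron markers in its own library. For Chodl this ratio was 0.538, 0.596 and 0.659 in SBES, 0.758, 0.915 and 0.905 in untrained and 1.61, 1.15 and 1.06 in sham libraries, so the 3 groups did not overlap. Uts2b had ratios of 0.0981, 0.832 and 0.266 in SBES, 0.271, 1.55 and 0.792 in untrained and 3.20, 5.90 and 5.50 in sham libraries, where SBES and untrained libraries overlapped each other and neither reached sham. For Wnt7a the ratios were 0.127, 0.277 and 0.0894 in SBES, 0.665, 0.370 and 0.436 in untrained and 0.620, 0.425 and 0.491 in sham libraries, with SBES alone apart. Against the geometric mean of the 3 cholinergic genes Chat, Slc18a3 and Slc5a7 alone, the Chodl ratio was 0.325, 0.400 and 0.389 in SBES, 0.520, 0.534 and 0.671 in untrained and 1.04, 0.804 and 0.633 in sham libraries. On that scale untrained library 3 exceeded sham library 3, so untrained and sham overlapped, and SBES stayed below both. The groupings for Uts2b and Wnt7a were as with the 7 markers. With the 7 markers, SBES lay wholly above sham for Sv2a (3.98, 4.06 and 4.08 against 3.63, 2.24 and 2.30) and Gfra1 (0.888, 0.771 and 0.781 against 0.653, 0.398 and 0.620). For Esrrb, at its low counts, SBES lay above untrained (0.0311, 0.0323 and 0.0400 against 0.0217, 0.0187 and 0.0295). Against the 3 cholinergic genes Esrrb overlapped between these groups (0.0188, 0.0217 and 0.0236 against 0.0149, 0.0109 and 0.0219). The share of all genes that separate on such ratios was not computed. These ratios are descriptions, and 3 libraries against 3 could not give an exact permutation p under 0.10. With the mean level of the 7 markers as a covariate in the edgeR fit, the log2 fold change in SBES against sham was -3.22 for Uts2b (SE 0.61, adjusted p = 0.0509), -1.11 for Chodl (SE 0.23, adjusted p = 0.0694) and -1.75 for Wnt7a (SE 0.40, adjusted p = 0.106).

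**Figure D4:**
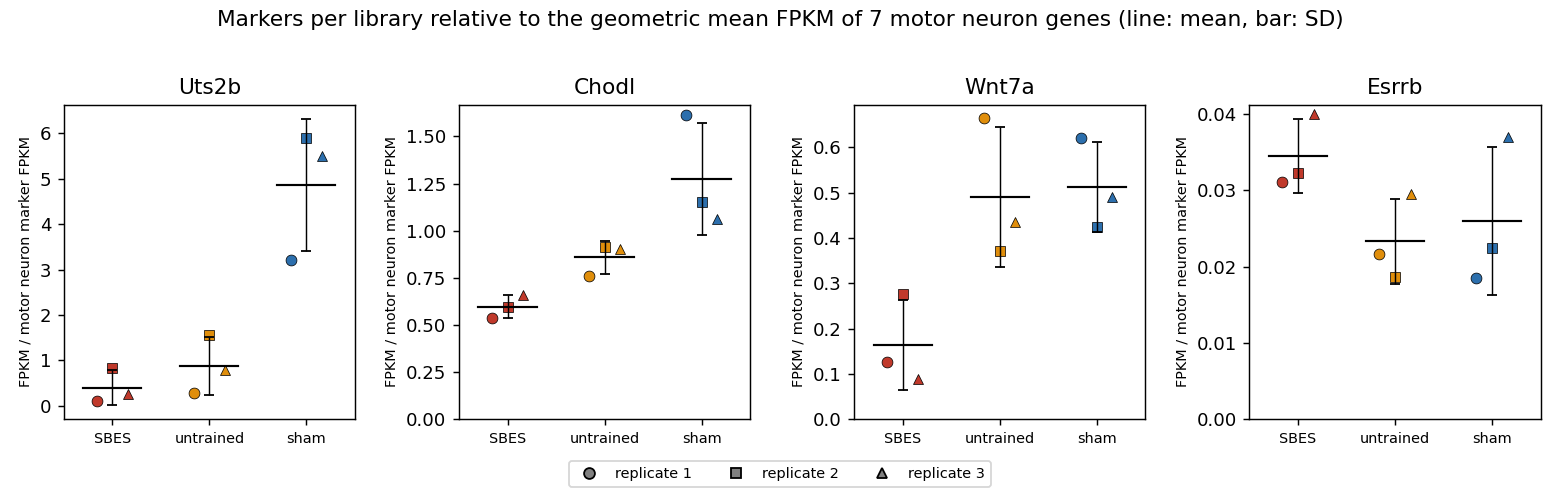
FPKM of Uts2b, Chodl, Wnt7a and Esrrb divided by the geometric mean FPKM of 7 motoneuron genes in the same library, with SBES left, untrained in the middle and sham right; lines are means and bars the SD of 3 libraries. The Chodl ratios run from 0.538 to 0.659 in SBES, 0.758 to 0.915 in untrained and 1.06 to 1.61 in sham libraries.

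Other markers of the same subtypes were described from a list of 14 genes, all tested, whose median log2 fold change was -0.063 for SBES against untrained, -0.034 for SBES against sham and -0.12 for untrained against sham. Of these, 1 fell and 0 rose past the threshold, in SBES against sham only, where 0.346% of all genes were called. It was Calca, the precursor of CGRP, at 63.7, 78.2 and 35.9 CPM in SBES, 87.3, 66.1 and 44.3 CPM in untrained and 213, 276 and 546 CPM in sham libraries. All 6 injured libraries lay below all sham libraries, and the log2 fold change was -2.54 in SBES against sham (SE 0.41, edgeR adjusted p = 0.0287) and -2.39 in untrained against sham (SE 0.41, adjusted p = 0.184). The call ended without SBES library 3 (adjusted p = 0.124), sham library 2 (0.0731) or sham library 3 (0.166), and the log2 fold change stayed between -2.80 and -2.04 over the libraries left out.

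Vipr2, a receptor for vasoactive intestinal peptide and an alpha motoneuron marker, was at 2.12, 0.902 and 0.989 CPM in SBES, against 2.83, 5.46 and 3.82 CPM in sham libraries (log2 fold change -1.64, SE 0.51, adjusted p = 0.256). Prkcd, a protein kinase C listed here with the slow markers, was at 19.6, 18.2 and 17.4 CPM in SBES, against 14.2, 11.8 and 6.60 CPM in sham libraries (0.77, SE 0.29, adjusted p = 0.409). Dlk1, a membrane ligand reported in fast motoneurons, was at 13.5, 9.78 and 12.8 CPM in SBES, against 7.67, 4.62 and 7.12 CPM in untrained libraries (0.89, SE 0.31, adjusted p = 0.896). Sham libraries averaged 7.12 ± 2.53 CPM of Dlk1 and overlapped SBES. Untrained libraries averaged 2.15 ± 1.32 CPM of Vipr2 and 14.1 ± 2.81 CPM of Prkcd (SD, n = 3 each). In SBES against sham, 2 of the 3 fast genes and 2 of the 4 alpha genes of this list were below 0. The median log2 fold change of its 5 gamma genes was -0.18 for SBES against untrained, 0.012 for SBES against sham and -0.054 for untrained against sham.

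A list of 40 partners and relatives of the members, such as ligands, co-receptors and paralogues, gave 34 tested genes, and 0 passed in any comparison. Their median log2 fold change was 0.15 for SBES against untrained, 0.19 for SBES against sham and 0.017 for untrained against sham. Ret, the signalling partner of Gfra1, stood at 41.8 ± 19.0 CPM in SBES, 30.4 ± 12.3 CPM in untrained and 33.3 ± 4.78 CPM in sham libraries. Esrra, the third member of the receptor family of Esrrb and Esrrg, was at 21.9 ± 6.97, 24.1 ± 10.2 and 27.4 ± 5.61 CPM in SBES, untrained and sham libraries (SD, n = 3 each). Lcn2, a secreted lipocalin that binds the Mmp9 protein, was at 129, 138 and 632 CPM in SBES, 34.0, 29.3 and 22.5 CPM in untrained and 41.6, 11.0 and 7.03 CPM in sham libraries. All SBES libraries lay above the other 6, with SBES library 3 far above the rest, at a log2 fold change of 3.93 against sham (SE 0.75, adjusted p = 0.0521) and 3.39 against untrained (SE 0.72, adjusted p = 0.568). With the replicate block, which called 91 genes higher (0.573%), Lcn2 rose in SBES against sham (3.98, SE 0.77, edgeR adjusted p = 0.0407). It was also called there without SBES library 1 (adjusted p = 0.0318), SBES library 2 (0.0462) or sham library 1 (0.0421), and without SBES library 3 the log2 fold change was 2.77 against sham and 2.23 against untrained.

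**Figure D5:**
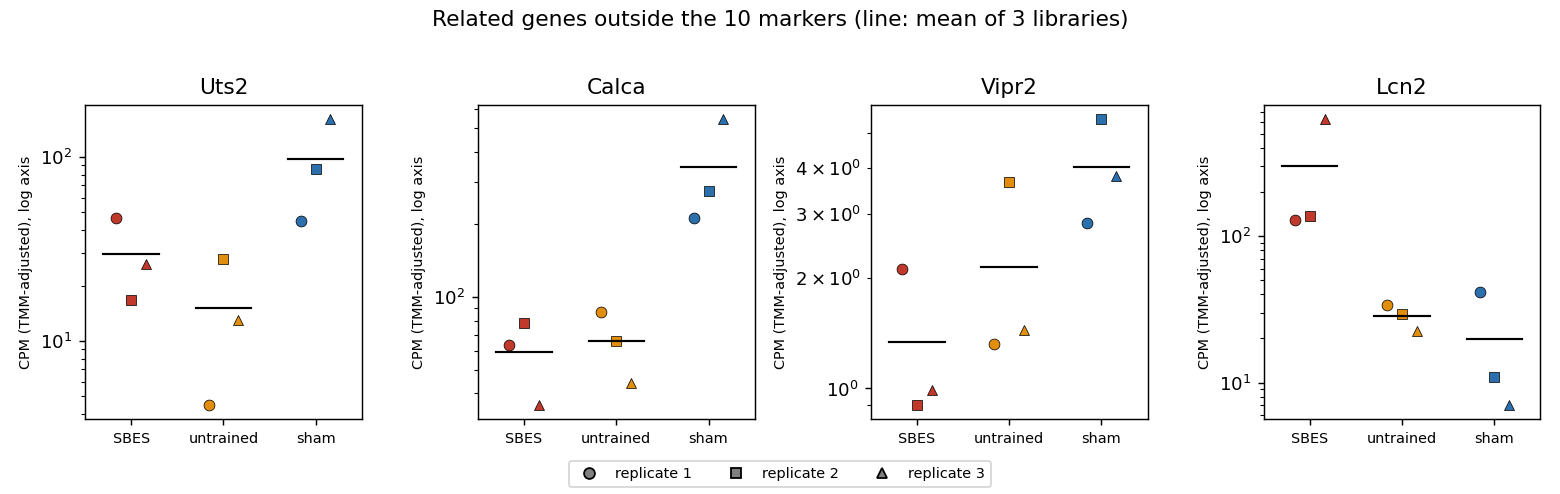
Uts2, Calca, Vipr2 and Lcn2 in each library in CPM (TMM-adjusted) on log axes, with SBES left, untrained in the middle and sham right; points are libraries and lines means. Calca lies at 35.9 to 78.2 CPM in SBES and 213 to 546 CPM in sham libraries, and Lcn2 at 129 to 632 CPM in SBES and 7.03 to 41.6 CPM in sham libraries.

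The genes most like each member over the 9 libraries are given as a description, by Pearson's r of log2 CPM among about 9518 genes with a mean of at least 5 CPM. All points share library depth and composition, and the highest of so many values is large in any data. Uts2b was most like Asic1 (0.960), Fam114a2 (0.959) and Rnf122 (0.958), and Chodl most like Spg20 (0.962), Slain1 (0.953) and Sox2ot (0.947). Wnt7a was closest to Erg28 (0.969), Insc (0.955) and Polr3k (0.937), and Mmp9 to Cox7a1 (0.977), Dhcr7 (0.953) and Lamp5 (0.931). Esrrb, at its low counts, followed Nacad (0.986), the acetylcholine transporter gene Slc18a3 (0.958) and Klhdc4 (0.950), and Gfra1 followed Mark4 (0.961), Adam11 (0.949) and Mapk8ip3 (0.940). For Esrrg the genes were Prkaa2 (0.905), Senp2 (0.899) and Ercc4 (0.896), for Sv2a Ganab (0.950), Galnt16 (0.928) and Nol6 (0.913), for Spp1 Cfl1 (0.935), Tpt1 (0.926) and Brk1 (0.916), and for Rbfox3 Adcy3 (0.914), Slc22a17 (0.911) and Rap1gap (0.910). Among the members themselves the closest pair was Chodl and Uts2b (0.910), followed by Esrrb and Gfra1 (0.796) and Esrrg and Gfra1 (0.766), and the most opposed was Mmp9 and Sv2a (-0.761).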

How the data were processed

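The authors deposited 1 table with a whole-number count and an FPKM value per gene and library. Per the labels' protocols, paired-end reads were aligned with Hisat2 2.0.1 and counted with HTSeq 0.6.1; the submitters' processing notes name mm10 as build. No annotation release or strand setting is named in the sources used here. The deposited FPKM equalled counts divided by exonic length and library total within 0.006 for 100% of values.

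Counts were filtered with filterByExpr (15893 of 55401 genes kept), scaled by TMM and fitted with edgeR 4.0.16 in R 4.3.3, in 1 quasi-likelihood fit over 9 libraries, group being its only term. The adjusted p is Benjamini-Hochberg over all genes tested, with a threshold of 0.05; the SE is the absolute log2 fold change divided by the root of F, and intervals are 95%. The fit was tested on simulated data. DESeq2 1.42.0 was an alternative. CPM is edgeR's, on the TMM-adjusted total, except for Malat1, where the unadjusted total was used. Library totals were 11821145 to 17675948 counts.

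No label pairs the libraries, so the replicate block is an alternative fit only, and in the SBES group the number also marks the frequency. Deviations from the group means correlated at 0.268, 0.159 and 0.144 for same-numbered SBES and sham libraries 1 to 3. The differently numbered SBES library 3 and sham library 2 reached 0.168. Same-numbered values were 0.391, 0.00105 and 0.222 for untrained and sham, and 0.242, -0.168 and 0.262 for SBES and untrained. These correlations do not settle whether the numbers pair the libraries. No 2 libraries of a group agreed within sampling noise (chi-square per degree of freedom at least 26.5).

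All 10 members are named. Of the lists of other subtype markers and of partners, genes with an unadjusted p under 0.05 and no overlap in CPM were named, together with Ret, Esrra, Uts2r and Gpnmb, chosen after their values were seen. The members and lists were chosen with earlier results of these data known. The reads carry no molecular identifiers, so Poisson intervals cover counting error only.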

Additional observations from a re-analysis of the deposited data

How the results depend on the processing

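Genes called over all genes moved with the fit. In untrained against sham 0 were called with all libraries, 134 with no filter on low counts, 4 with the replicate block, 1 with motoneuron markers as covariate, 18 with DESeq2 and 47 without the replicate 1 libraries (chosen after seeing the data), and 0 to 0 with each library left out. In SBES against untrained the counts were 0, then 186 with no filter, 30 with DESeq2 and 13 without the replicate 1 libraries, and 0 to 1 with a library left out. In SBES against sham they were 55, then 517 with no filter, 132 with the replicate block, 300 with DESeq2 and 581 without the replicate 1 libraries. There the count was 86 without SBES 1, 48 without SBES 2, 4 without SBES 3, 29 without sham 1, 6 without sham 2 and 0 without sham 3, a range of 0 to 86. The causes were not tested.

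Of the 390 alternative values of the members, 347 kept direction and side of the threshold, 19 gained a call and 24 changed sign. In untrained against sham, where as elsewhere no label pairs the libraries, Uts2b was called with the replicate block (-2.94, adjusted p = 0.0409), with no filter (-2.60, 3.56e-10) and without the replicate 1 libraries (-2.48, 0.0290). The block changed no other member's call beyond those given beside the results.

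Some values changed sign. Without the replicate 1 libraries, Esrrg was at -0.39 (SBES against sham), -0.26 (SBES against untrained) and -0.12 (untrained against sham), Dlk1 at 0.074 in untrained against sham, Sv2a at -0.16 and Calca at 0.023 in SBES against untrained, and Spp1 at 0.087 in SBES against sham. Esrrb in SBES against sham was at 0.0024 with DESeq2 size factors, 0.0081 with no filter, 0.0038 with these groups alone, 0.10 with the block, 0.39 with the covariate and 0.0059 with DESeq2; Rbfox3 was at -0.016 with the covariate. With a library left out, values ran in untrained against sham from -0.18 to 0.25 for Esrrg, -0.29 to 0.043 for Gfra1 and -0.29 to 0.22 for Dlk1. In SBES against untrained they ran from -0.054 to 0.18 for Sv2a, -0.046 to 0.10 for Mmp9, -0.18 to 0.60 for Esrrg and -0.41 to 0.11 for Calca. In SBES against sham they ran from -0.28 to 0.42 for Esrrb, -0.13 to 0.63 for Esrrg and -0.027 to 0.069 for Rbfox3. Between mean FPKM and mean CPM, the log2 ratio of SBES to untrained changed sign for Sv2a (-0.14 and 0.086), Rbfox3 (-0.014 and 0.19) and Mmp9 (-0.15 and 0.037), that of SBES to sham for Rbfox3 (-0.0036 and 0.011) and Esrrb (-0.031 and 0.045), and that of untrained to sham for Rbfox3 (0.010 and -0.18).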
